A study of Oryza sativa with 4 samples.

Results

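Aux/IAA and ARF genes encode the transcriptional core of the auxin response. Their members were found by gene name, as the genes of the array's probe-to-gene table whose symbol or synonym, without the Os prefix, is IAA or ARF followed by a number. This gave 43 of the 17905 genes with a probe set, 26 Aux/IAA and 17 ARF genes. The leaves were taken from rice (Oryza sativa) with OsBIERF3 overexpressed (OsBIERF3-OE), an ethylene-responsive factor gene, and from wild type plants (WT). All plants were 3 weeks old and grew under normal conditions, with days of 14 h at 28 °C and nights of 10 h at 26 °C. RNA of each sample was read on 1 Affymetrix rice array, with 2 arrays per genotype. The labels give neither the promoter of the overexpression construct nor the number of transgenic lines or of plants per sample, and they call the replicates biological without saying that they came from separate plants. The p-values therefore cover the spread among these 4 samples alone. OsBIERF3 was not analysed here.

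Auxin acts by removing repressors. Aux/IAA proteins bind ARF transcription factors and hold them inactive; auxin joins an Aux/IAA protein to its TIR1/AFB receptor, the Aux/IAA protein is degraded, and the ARF is free to act on auxin-responsive genes. Many Aux/IAA genes are themselves induced quickly by auxin, so the pathway restrains itself. Some ARF proteins, with a glutamine-rich middle region, activate transcription and the others mostly repress it, and several ARF mRNAs are cut under the guidance of small RNAs. In leaves the pathway is known for its part in cell expansion, vein formation and leaf angle.

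The comparison asks which of these genes differ in leaf level when OsBIERF3 is overexpressed. In OsBIERF3-OE leaves 8 of the 38 members tested rose, 1 fell and 29 did not pass limma's adjusted p of 0.05. The 5 Aux/IAA genes that rose were IAA14, IAA31, IAA7, IAA30 and IAA13, by 1.39-fold to 6.98-fold, and the 1 that fell was IAA2, 2.38-fold higher in WT. The 3 ARF genes that rose were ARF17, ARF12 and ARF14, by 1.45-fold to 2.17-fold. Of all 15981 genes tested by the same rule, 31.8% passed in either direction, 17.2% higher and 14.5% lower in OsBIERF3-OE, so the members' 23.7% is a smaller share than that background. Their share of rises, 21.1%, was near the background and their share of falls, 2.63%, was below it; no test of the list was made. When hybridization controls set the scale of each array, 4614 of all genes were higher and 865 lower, against 2755 and 2319 as deposited. The median log2 change was then 0.29 for members and 0.24 for all genes, against 0.00 and -0.04 as deposited. The 9 genes past the test kept their direction under that scaling and passed in it. It moved every log2 change up by the same amount. Tested members between -0.28 and 0 as deposited, none of which passed, therefore turned above 0. Of those given in full these were IAA17, IAA21, ARF4, ARF15 and ARF23. The rest were IAA1, IAA4, IAA5, IAA10, IAA15, ARF9 and ARF10. ARF3, ARF16 and ARF24 passed on that scale but not as deposited, so that 11 members were higher and 1 lower.

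**Figure D1:**
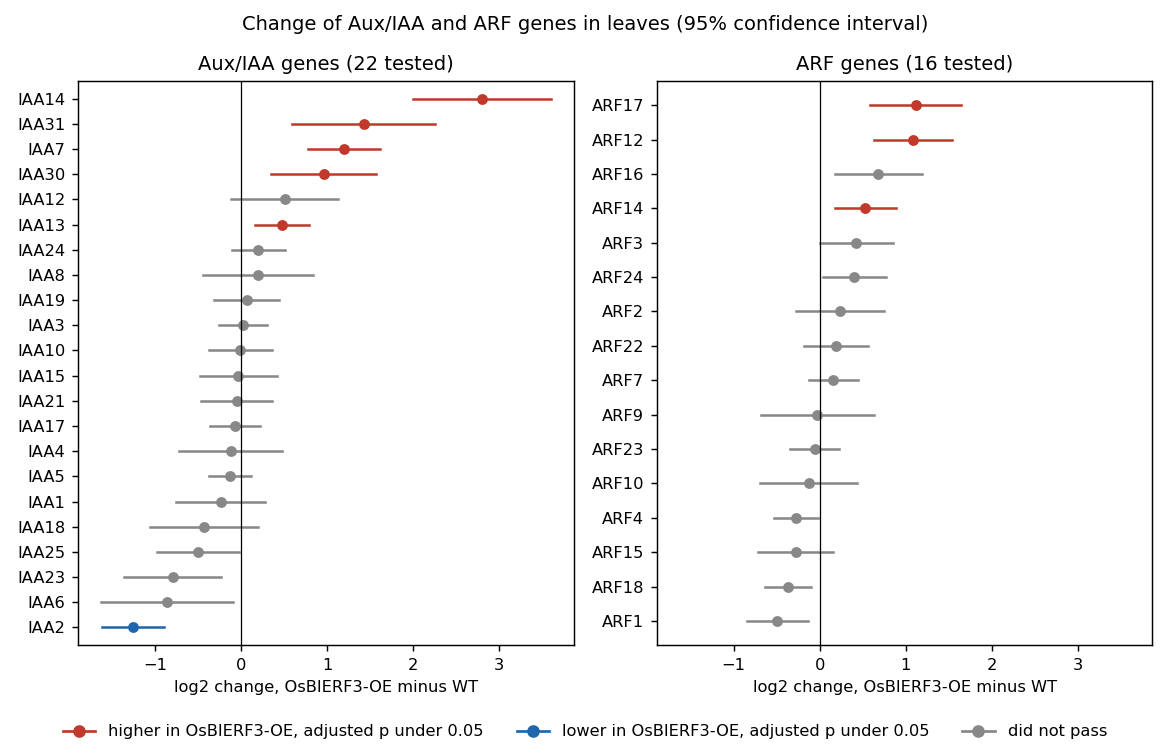
Log2 change (OsBIERF3-OE minus WT) of the 22 Aux/IAA genes (left) and 16 ARF genes (right) tested, each point with its 95% confidence interval from limma and coloured by whether it passed an adjusted p of 0.05. IAA14 stands at 2.80 and IAA2 at -1.25. Many other members have intervals that include 0, but some that did not pass have intervals that exclude it, IAA6 and ARF18 among them.

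The median log2 change was 0.00 over the 38 members and -0.04 over all genes tested, with 19 members above 0 and 19 below. By family the median was -0.02 for the 22 Aux/IAA genes and 0.17 for the 16 ARF genes. The median size of the change without its sign was 0.32 for members and 0.38 for all genes. The genotypes did not overlap for 23 of the 38, or 60.5%, against 73.8% of all genes. In 14 of these the OsBIERF3-OE arrays were the higher ones and in 9 the lower ones, while 34.4% and 39.4% of all genes lay apart in these directions. The median standard error was 0.17 for members and 0.15 for all genes. Counted by probe set, 24.2% of the 34355 tested passed.

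Among the Aux/IAA genes, whose products are the repressors, IAA14 (LOC4334431) had the largest fitted change. Its signal was 194 and 236 on OsBIERF3-OE arrays 1 and 2, against 41.8 and 22.5 on WT arrays 1 and 2. The groups did not overlap, but WT array 2 was not above the brightest control probe set that has no rice target. The mean was 215 ± 29.2 in OsBIERF3-OE and 32.1 ± 13.6 in WT (SD, n = 2 each), a 6.98-fold rise with a log2 change of 2.80 ± 0.32 (SE; limma adjusted p = 0.00595). IAA14 passed in all 14 other settings of the analysis, with a log2 change between 2.36 and 3.25 when an array was left out.

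IAA7 (LOC4328796) had a signal of 104 and 109 on the OsBIERF3-OE arrays, against 51.3 and 41.7 on the WT arrays. The rise was 2.29-fold, a log2 change of 1.20 ± 0.17 (SE; limma adjusted p = 0.00966). Like IAA14 it passed whichever array was left out, although its WT signals were not far above the background controls, which reached 25.9 and 25.1 on those arrays.

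IAA30 (LOC4352721) and IAA31 (LOC4352722) are direct neighbours in the RefSeq gene table, with 0 coding genes between them, and both rose. IAA31 had a signal of 619 and 471 in OsBIERF3-OE, against 277 and 146 in WT, a 2.68-fold rise (log2 change 1.42 ± 0.33, SE; limma adjusted p = 0.0346). IAA30 had 2099.7 and 2493 in OsBIERF3-OE, against 1489.8 and 931 in WT, a 1.94-fold rise (log2 change 0.96 ± 0.24, SE; limma adjusted p = 0.0426). WT array 1 was the higher WT array for both genes, and it was still below the lower OsBIERF3-OE array. Without WT replicate 2 the log2 change of IAA30 was 0.62 (limma adjusted p = 0.0939) and that of IAA31 was 0.96 (0.0707). Neither gene passed without OsBIERF3-OE replicate 1 (0.0655 for IAA30 and 0.0956 for IAA31) or without OsBIERF3-OE replicate 2 (0.136 and 0.0645). A second, dimmer probe set of IAA31 had a log2 change of 0.25 and did not pass (limma adjusted p = 0.364); its signals lay between 18.7 and 26.9, at or below the background controls.

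IAA13 (LOC4334069, also listed as IAA1), a gene in which a dominant rice mutation reduces lateral roots, had a signal of 3826 and 4425 in OsBIERF3-OE, against 3175 and 2758 in WT. The groups did not overlap and the rise was 1.39-fold (log2 change 0.48 ± 0.12, SE; limma adjusted p = 0.047). It did not pass in 8 of the 14 other settings, among them each of the 4 with an array left out, where the adjusted p ran up to 0.193.

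IAA2 (LOC4326775) was the 1 member that fell. It had a signal of 291 and 274 on the OsBIERF3-OE arrays, against 744 and 609 on the WT arrays. Both OsBIERF3-OE arrays were well below either WT array. The means were 283 ± 12 in OsBIERF3-OE and 677 ± 95.4 in WT (SD, n = 2 each), with a log2 change of -1.25 ± 0.14 (SE; limma adjusted p = 0.006). It passed in all 14 other settings, at -1.40 to -1.11 with an array left out.

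**Figure D2:**
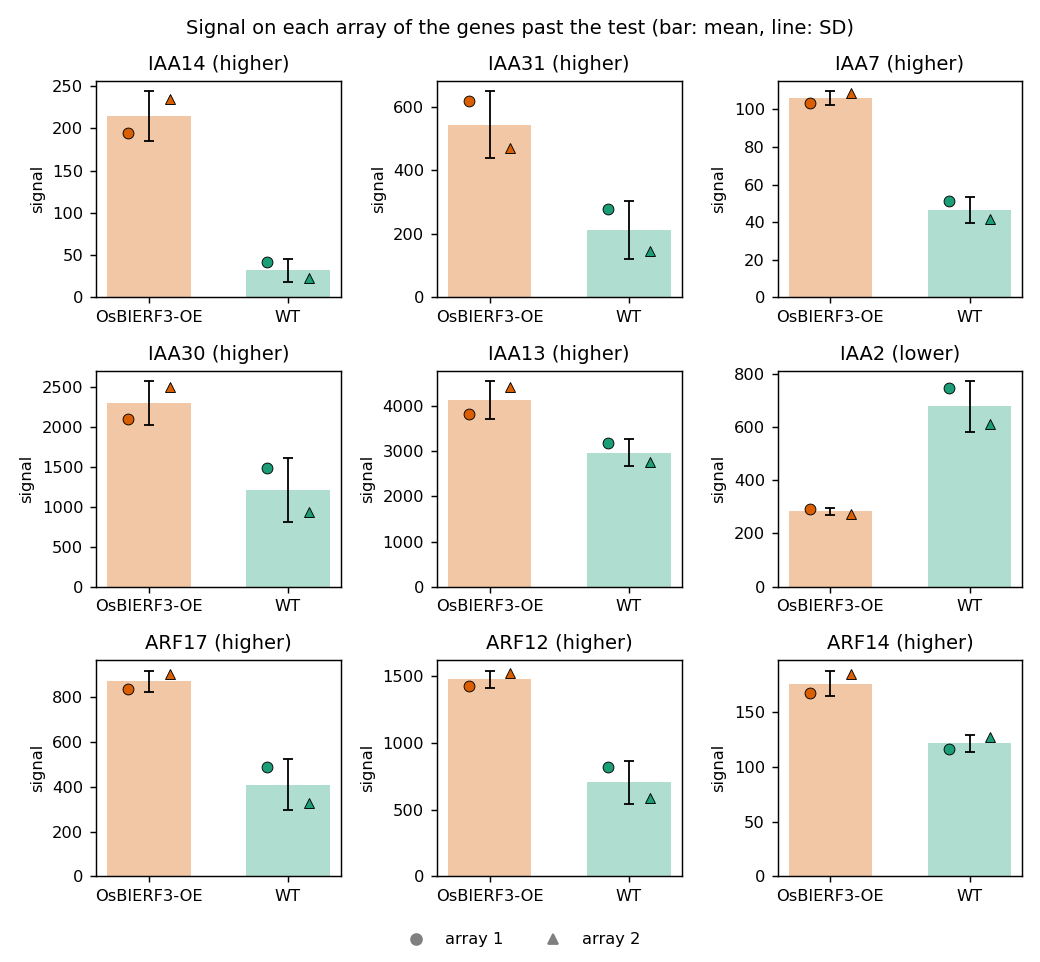
Deposited signal (linear scale) of the 9 genes past the test, with OsBIERF3-OE left of WT; bars are means, lines the SD (n = 2 each) and symbols the 2 arrays. In each panel both OsBIERF3-OE arrays lie on the same side of both WT arrays, and WT array 1 is the higher WT array for 8 of the 9 genes, ARF14 being the exception.

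The 16 Aux/IAA genes that did not pass had log2 changes from -0.87 to 0.50. The largest were in IAA6, IAA23 and IAA25, all with lower signals in OsBIERF3-OE. IAA6 (LOC4326541), studied in rice for drought tolerance and tiller outgrowth, had 102 and 96.1 in OsBIERF3-OE, against 246 and 133 in WT. The groups did not overlap, but the WT arrays lay far apart (log2 change -0.87 ± 0.30, SE; limma adjusted p = 0.0969). Its size rested on the WT arrays: it passed without WT replicate 2, at -1.31 (limma adjusted p = 0.0238), and was -0.42 without WT replicate 1 (0.21). It did not pass without OsBIERF3-OE replicate 1 (0.175) or replicate 2 (0.233).

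IAA23 (LOC4341432), in which a dominant rice mutation disturbs the root quiescent centre, had 122 and 186 in OsBIERF3-OE, against 267 and 257 in WT. Both OsBIERF3-OE arrays were lower, with a log2 change of -0.80 ± 0.22 (SE; limma adjusted p = 0.0558). It passed without OsBIERF3-OE replicate 2, at -1.10 (limma adjusted p = 0.0264), but was -0.50 without OsBIERF3-OE replicate 1 (0.112) and did not pass without WT replicate 1 (0.166) or WT replicate 2 (0.159). Its probe set is of a kind that can bind related transcripts; a second one, without that mark, had a log2 change of -0.76 and did not pass either. IAA25 (LOC4344471) had 264 and 259 in OsBIERF3-OE, against 314 and 441 in WT (log2 change -0.51 ± 0.19, SE; limma adjusted p = 0.113).

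The genotypes overlapped for 9 of these 16 genes. For 7 of the 16, IAA3, IAA5, IAA10, IAA15, IAA17, IAA19 and IAA21, the 95% interval of the log2 change lay within 0.5 of 0. IAA17 (LOC4338160), read by a probe set that may bind several transcripts, had 7699 and 9131 in OsBIERF3-OE, against 9233 and 8461 in WT, with an interval from -0.37 to 0.22. IAA3 (LOC4325890) had 6021 and 6629 in OsBIERF3-OE, against 6658 and 5830.3 in WT, with an interval from -0.25 to 0.29. IAA21 (LOC4340939) had 3856 and 5070.1 in OsBIERF3-OE, against 4969 and 4228 in WT, with an interval from -0.47 to 0.36. In all 3 the arrays of the genotypes interleave. IAA10, whose protein is a target of a capsid protein of rice dwarf virus, was as close, at a log2 change of -0.01.

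The other members that did not pass were IAA1, IAA4, IAA8, IAA12, IAA18 and IAA24. IAA12 had the largest change of these, at 0.50 with an interval from -0.12 to 1.12. Its neighbour IAA11 has no probe set matched here, nor has IAA29. IAA4, IAA8 and IAA18 are dim, with signals between 29.4 and 69.6.

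Among the ARF genes, ARF17 (LOC4341841) had a signal of 837 and 905 on the OsBIERF3-OE arrays, against 490.5 and 329 on the WT arrays. This was a 2.17-fold rise, a log2 change of 1.12 ± 0.21 (SE; limma adjusted p = 0.0206). ARF12 (LOC4337363, also listed as ARF8), which in rice is known for root elongation and iron distribution, had 1429 and 1523 in OsBIERF3-OE, against 819 and 590.1 in WT. Its rise was 2.12-fold, a log2 change of 1.09 ± 0.18 (SE; limma adjusted p = 0.0149). For both genes the OsBIERF3-OE arrays lay close together and above both WT arrays. Both missed the threshold in 1 of the 14 other settings, without OsBIERF3-OE replicate 2, with a limma adjusted p of 0.071 for ARF17 and 0.0546 for ARF12.

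ARF12 and ARF17 are both activators, and both are known targets of the microRNA miR167 in rice. The array read 3 ARF genes of the activator class, and the third, ARF16 (LOC9270361), had 184 and 218 in OsBIERF3-OE, against 145 and 107 in WT. Its signals did not overlap between the genotypes, with a log2 change of 0.68 ± 0.20 (SE; limma adjusted p = 0.062), and it did not pass. On the scale of the hybridization controls it passed, at 0.97 (limma adjusted p = 0.0296). The 13 tested ARF genes outside that class had log2 changes from -0.49 to 0.53, with a median of -0.03 and 7 of them below 0. The class came from general knowledge and was set beside these values after they were known, so the difference is a description of 3 genes against 13 with no test. Of the activators, 5 others, ARF5, ARF6, ARF19, ARF21 and ARF25, have no probe set matched here, nor has ARF8. ARF11, also counted in the activator class, was not found by name.

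ARF14 (LOC4339313) rose 1.45-fold, with 168 and 185 in OsBIERF3-OE, against 116 and 127 in WT. Its log2 change was 0.53 ± 0.14 (SE; limma adjusted p = 0.0467), and it did not pass in 8 of the 14 other settings, among them each of the 4 with an array left out. ARF14 is an ETTIN-type gene; the mRNAs of this group are cut under the guidance of trans-acting small RNAs. Of the 4 measured genes of the group, ARF3 (LOC4327014) had 426 and 538 in OsBIERF3-OE, against 385 and 329 in WT, with a log2 change of 0.43 that did not pass (limma adjusted p = 0.125), though it did on the scale of the hybridization controls (0.71, limma adjusted p = 0.0437). ARF2 and ARF15 did not pass either, at 0.24 and -0.28, so the group ran from -0.28 to 0.53.

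The 3 measured targets of miR160, ARF10, ARF18 and ARF22, did not pass and had log2 changes from -0.37 to 0.19. ARF18, which gives dwarf rice when freed from miR160, had 514 and 512 in OsBIERF3-OE, against 679 and 648 in WT. The arrays of each genotype agreed closely and the groups were apart, but the log2 change of -0.37 ± 0.11 (SE) had a limma adjusted p of 0.0599. ARF1 (LOC4327785), also listed as ARF16, had 211 and 177 in OsBIERF3-OE, against 272 on each WT array (log2 change -0.49 ± 0.14, SE; limma adjusted p = 0.0597).

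ARF4 (LOC4326957, also listed as ARF2), a regulator of rice grain size, had 1392 and 1303 in OsBIERF3-OE, against 1671 and 1581 in WT, and did not pass (log2 change -0.27 ± 0.10, SE; limma adjusted p = 0.113). Its second probe set had a log2 change of -0.38 and a limma adjusted p of 0.0613. On the scale of the hybridization controls the log2 change of ARF4 was 0.016, so its direction depends on the scaling. ARF23 and ARF24 together promote transcription of the formin gene RMD in rice. ARF23 (LOC4350610, also listed as ARF1) had 1330.0 and 1439.8 in OsBIERF3-OE, against 1524 and 1358 in WT (log2 change -0.06, 95% interval -0.34 to 0.23), and ARF24 had a log2 change of 0.40 (limma adjusted p = 0.104). ARF15 (LOC9268260), also named ETTIN1, had 746 and 1013 in OsBIERF3-OE, against 1101 and 1006 in WT, and the genotypes overlapped. ARF7 and ARF9 had log2 changes of 0.16 and -0.03, and the WT arrays of ARF9 differed most among the ARF genes, at 1196 and 729.

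IAA9, IAA16, IAA20, IAA26 and ARF13 were below the filter on dim probe sets and were not tested. Their signals were between 4.55 and 13.6 on every array, under the background controls at 25.1 to 28.0, so no change could be measured.

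The members also differed between arrays of the same genotype, and in a shared direction. The signal on WT array 1 was above that on WT array 2 for 36 of the 38 members tested, or 94.7%, against 56.4% of all genes. The exceptions were IAA25 and ARF14. The median log2 difference was 0.20 over members and 0.04 over all genes. The signal on OsBIERF3-OE array 2 was above that on OsBIERF3-OE array 1 for 30 of the 38, or 78.9%, against 49% of all genes, with median log2 differences of array 1 minus array 2 of -0.20 and 0.00. Quantile normalization of the arrays left 35 and 32 of the 38 in these directions, against 52.4% and 51.5% of all genes, and scaling on the hybridization controls 36 and 33, against 66.1% and 57.6%. The shift was not particular to members. Among the 21 other auxin pathway genes tested, given below, 71.4% were higher on WT array 1 and 66.7% on OsBIERF3-OE array 2. Their median log2 differences of array 1 minus array 2 were 0.20 in WT and -0.07 in OsBIERF3-OE.

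**Figure D3:**
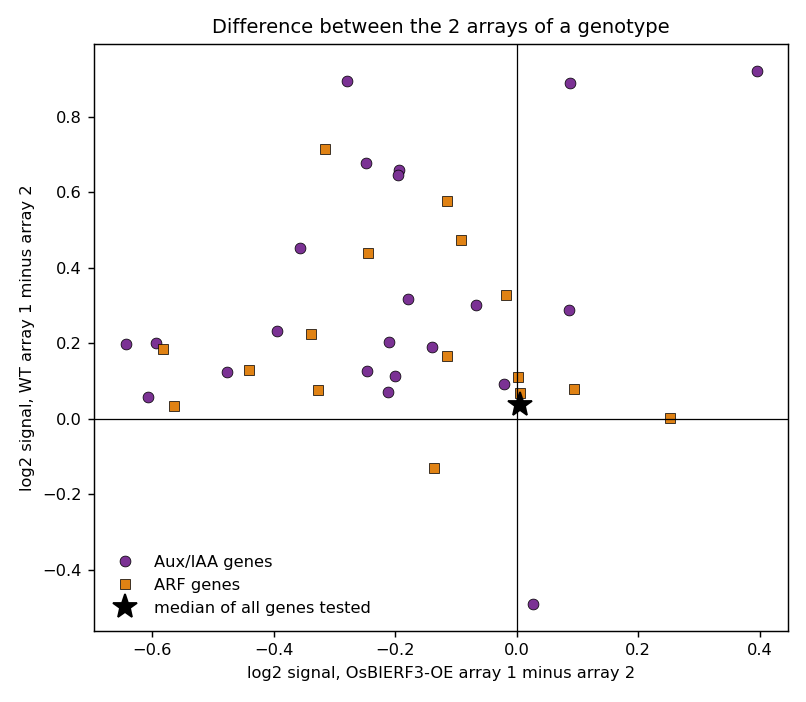
Difference in log2 signal between the 2 OsBIERF3-OE arrays (horizontal axis) and between the 2 WT arrays (vertical axis) for the 38 members tested, with the median of all genes tested as a star. Most members, 29 of 38, lie at the upper left, higher on WT array 1 and on OsBIERF3-OE array 2, while the star sits near the origin.

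These differences within a genotype set how far the changes depend on single arrays. The median log2 change of the members was 0.17 without OsBIERF3-OE replicate 1, -0.08 without OsBIERF3-OE replicate 2, 0.13 without WT replicate 1 and -0.12 without WT replicate 2. For all genes it stayed between -0.06 and -0.03. The number of members that passed was 4 to 7 in these 4 fits, against 9 with all arrays, while 12.6% to 23.1% of all genes passed. IAA2, IAA7 and IAA14 passed in each of them.

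**Figure D4:**
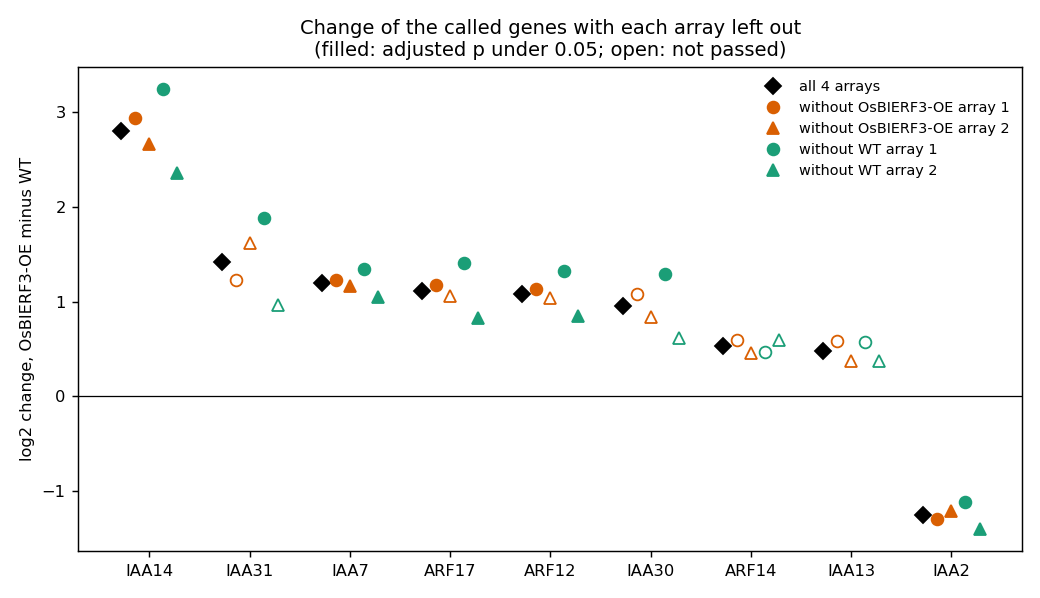
Log2 change of the 9 genes past the test with all 4 arrays (black diamonds) and with each array left out (orange for OsBIERF3-OE, green for WT); filled symbols passed an adjusted p of 0.05 and open symbols did not. The direction is the same in every fit, IAA14, IAA7 and IAA2 are filled throughout, and ARF14 and IAA13 are open whenever an array is missing.

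Genes that act before and after the Aux/IAA and ARF proteins were read from lists drawn up by name for auxin receptors, synthesis, conjugation and release, SAUR genes, transport, corepressors and LBD factors. Of 33 genes matched, 29 had a probe set and 21 were tested. Of these 2 rose, 3 fell and 16 did not pass, 23.8% against the background of 31.8%, with a median log2 change of -0.13. No gene of the table carried a receptor name.

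In auxin synthesis, FIB (LOC4325198, also TAR2), an aminotransferase gene of the first step from tryptophan, rose 1.68-fold. Its signal was 146 and 124 in OsBIERF3-OE, against 74.2 and 86.7 in WT (log2 change 0.75 ± 0.16, SE; limma adjusted p = 0.0304). YUCCA1, of the second step, had a log2 change of -0.91 and did not pass (limma adjusted p = 0.0576). In transport, 5 of the 9 matched PIN genes had a probe set and 2 were tested. PIN5A had 454 and 97.7 in OsBIERF3-OE, against 444 and 472 in WT, and did not pass (log2 change -1.12). The efflux carrier gene PIN10A (LOC4326565, also PIN3A) was read by a probe set that can bind related transcripts. Its dimmer probe set without that mark also rose, at 1.255 ± 0.147 (SE, limma adjusted p = 0.00643). By the brighter one, PIN10A had 144 on both OsBIERF3-OE arrays, against 63.3 and 39.3 in WT. There PIN10A rose 2.89-fold (log2 change 1.53 ± 0.25, SE; limma adjusted p = 0.015). It missed the threshold without OsBIERF3-OE replicate 2 (limma adjusted p = 0.0509), and FIB did so whichever array was left out, with adjusted p up to 0.118.

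Of the 13 tested genes of auxin conjugation and release, 2 fell, 0 rose and 11 did not pass. Of all genes 14.5% were lower and 17.2% higher, so the 15.4% that fell is near the background. Both that fell are ILL genes, of the family that frees auxin from its amino acid conjugates. The other ILL genes tested did not pass. Their log2 changes were 0.27 for ILL1, 0.17 for ILL6, -0.13 for ILL2 and -0.46 for ILL8. ILL7 (LOC4342838) had 212 and 168 in OsBIERF3-OE, against 279 and 342 in WT (log2 change -0.71 ± 0.18, SE; limma adjusted p = 0.0432), and ILL5 (LOC4336428) had 594 and 689 in OsBIERF3-OE, against 898 and 890.4 in WT (log2 change -0.48 ± 0.12, SE; limma adjusted p = 0.042). Neither passed on the scale of the hybridization controls, at -0.42 for ILL7 and -0.20 for ILL5. ILL5 missed the threshold whichever array was left out (limma adjusted p up to 0.153), and ILL7 without OsBIERF3-OE replicate 2, WT replicate 1 or WT replicate 2 (up to 0.177). No gene of the GH3 family, many of whose enzymes conjugate auxin and are induced by it, passed; GH3.5, also listed as JAR1, acts on jasmonate. Only GH3.5 and GH3.7 were above the background controls on all arrays, and GH3.6 was so in WT alone, so for the others of the family no change could be measured. DAO, which encodes an auxin-oxidizing enzyme, had a log2 change of -0.29.

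SAUR39 (LOC9271092), the 1 SAUR gene matched and in rice a negative regulator of auxin synthesis and transport, fell. It had 148 and 75.9 in OsBIERF3-OE, against 396 and 282 in WT, and was 3.15-fold higher in WT (log2 change -1.66 ± 0.35, SE; limma adjusted p = 0.0286). The groups did not overlap, but it did not pass without OsBIERF3-OE replicate 2 (limma adjusted p = 0.051), WT replicate 1 (0.102) or WT replicate 2 (0.0641). Of the TOPLESS-type corepressors, which Aux/IAA proteins recruit, TPR2 and TPR3 were tested and did not pass. TPR2 had 1053 and 1126 in OsBIERF3-OE, against 1452 and 1237 in WT (limma adjusted p = 0.14), and TPR3 had a log2 change of 0.05. ASP1 was not tested, with signals of 5.18 to 6.22, below the background controls on every array. The LBD transcription factor gene LBD6 had a log2 change of 0.29 (limma adjusted p = 0.238).

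**Figure D5:**
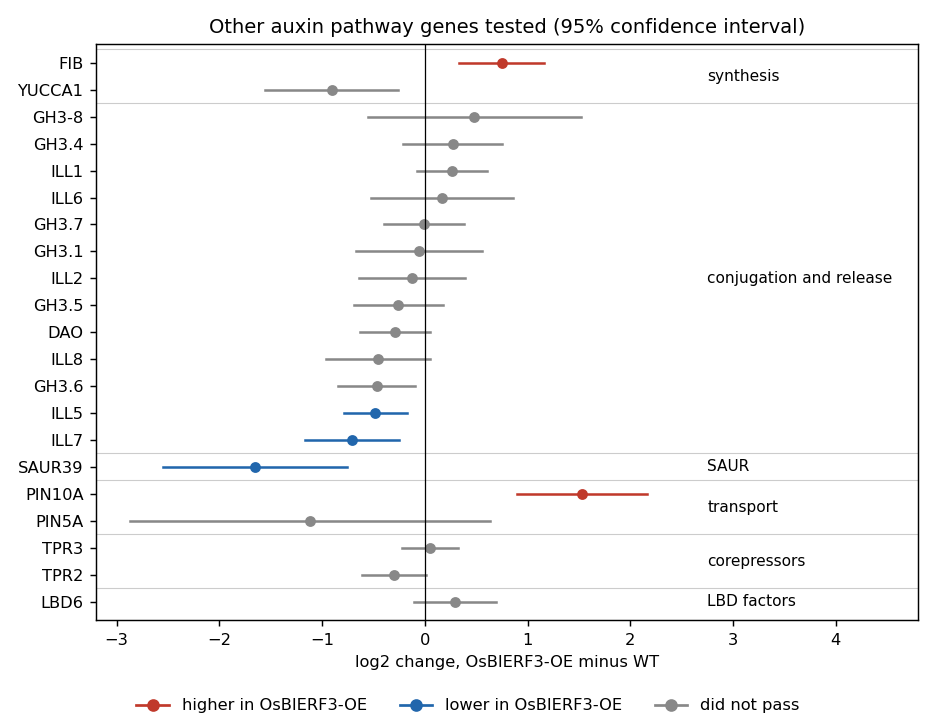
Log2 change (OsBIERF3-OE minus WT) with 95% confidence intervals for the 21 other auxin pathway genes tested, grouped by role. FIB and PIN10A are higher and ILL5, ILL7 and SAUR39 lower in OsBIERF3-OE past an adjusted p of 0.05.

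Marker genes of other cells moved between the same arrays. The 10 dividing-cell genes tested all rose, and the summed signal of that list was 5803 and 5553 in OsBIERF3-OE, against 443 and 426 in WT; 5 of them were above the background controls on all arrays. Of 6 tested genes of the YABBY family, read as genes of young leaves, YAB2, YAB5 and the midrib gene DL rose and 0 fell. YAB5 was below the background controls in WT. YAB4 also passed the test, but its signals of 26.3 and 19.1 in OsBIERF3-OE and 7.57 and 6.57 in WT were all below the background controls. The list gave sums of 2050.2 and 2437 in OsBIERF3-OE, against 1787 and 1447 in WT. Among shoot meristem genes OSH1 and OSH71 were below the background controls on all arrays, FON1 did not pass and LOG, a cytokinin activation gene, fell. The list summed to 1227 and 893 in OsBIERF3-OE, against 2017 and 2216 in WT. Most of that sum was LOG alone, at 945 and 657 in OsBIERF3-OE, against 1700 and 1869 in WT. Of 4 tested leaf photosynthesis genes 1 fell and 0 rose, with sums of 38881 and 38610.4 in OsBIERF3-OE, against 41778 and 41232 in WT; the gene that fell was the photosystem gene PSAG, at a log2 change of -1.17. None of the 3 root-linked genes passed, and their sum was high on 1 WT array, at 198 and 120 in OsBIERF3-OE, against 269 and 958 in WT. Apart from cell markers, the 3′ end of each control transcript gave more signal than its 5′ end on every array. For the GAPDH control, the 3′ probe set over the 5′ one gave 7.37 and 7.25 in OsBIERF3-OE, against 12.8 and 11.2 in WT. The first actin pair gave 29.1 and 24.0 in OsBIERF3-OE, against 39.9 and 37.7 in WT. For 3 actin pairs, not all with a 5′ probe set of their own, the log2 ratio was lower in OsBIERF3-OE by 0.55 to 0.85. The log2 difference, OsBIERF3-OE minus WT, was -0.27 for ubiquitin and 0.042 for cyclophilin, whose arrays overlapped. The part of any of these in the members' changes was not tested. In bulk leaf RNA, more or fewer cells of a type and more or less RNA per cell cannot be told apart.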

How the data were processed

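The authors deposited 1 intensity per probe set and array, on a linear scale. MAS5 is named by the submitters' processing notes, without version or role; no further step of background correction or normalization is recorded in the labels. Sorted log2 values of each array lay within 0.0803 of the 4-array mean, so all 4 arrays had nearly equal distributions. Medians were 19.7 to 20.3 and sums 16286703 to 16466346. The number of arrays limits the precision.

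Groups came from sample titles. Values (lower limit 1) were put on the log2 scale, 123 control probe sets were dropped, and of the rest the 60% with the highest mean, 34355, entered limma 3.58.1 (R 4.3.3; trend on, genotype alone, 5.28 total degrees of freedom) with Benjamini-Hochberg adjustment over all of them. Tested on simulated data with few changed probe sets, the fit gave mean estimates near the true changes and few false calls. It left many true changes uncalled, all of the smallest among them. In the real data 24.2% of probe sets passed, a far larger share than was changed in the simulation, so its recovery rates do not carry over. Changes are OsBIERF3-OE minus WT. Each gene was read by its brightest probe set on average (pandas 2.3.3). Gene names came from the platform table and RefSeq genes of assembly GCF_034140825.1; all 17905 genes matched, 22436 probe sets had 1 gene and 95 had several and were not named. The table gave 51 Aux/IAA or ARF names, 8 without a probe set; 8 members carry a second such name and were labelled by elimination. Signals ranked genes only to choose which to give in full, and gene order in the RefSeq table served only to find neighbours. On each array, the highest signal among 33 controls without a rice target is the background level.

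Members, lists and tests were chosen with earlier results of these data known. Every member is named. Given in full are those past the test, per family the 3 brightest and 3 largest changes among the rest, and per pathway list up to 3 past the test or the lowest p. Second probe sets, small RNA targets and activators were chosen after values were seen. Alternatives were each array left out, replicate number as a block, no or a stricter filter, 2 other scalings, log2(signal + 16), dim signals raised to background, no trend, and 2 other probe set rules.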

Additional observations from a re-analysis of the deposited data

How the results depend on the processing

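With 2 arrays per genotype, 3 of the 9 members past the test, IAA2, IAA7 and IAA14, passed in all 14 other settings, and none of the 9 changed sign in any. With an array left out, 2 to 6 members were higher and 1 to 2 lower, 0 to 1 other pathway genes were higher and 0 to 3 lower, and 1382 to 1870 of all genes were higher and 635 to 1826 lower, with 3270 to 6171 probe sets past the test. The replicate numbers are shared by the genotypes but are not known to pair the samples, and deviations of same-numbered arrays correlated at -0.25. With the replicate number as a block, 5 members were higher, 1 pathway gene was higher and 1 lower, 1646 of all genes were higher and 962 lower, and 4540 probe sets passed; IAA13, IAA30 and ARF14 were lost. With the pairing crossed, an alternative chosen after seeing the data, 11 members, 2 pathway genes and 3796 of all genes were higher and 6, 6 and 3938 lower, 48.4% of all genes in all. With no filter 1 pathway gene was lower. In the upper 40% of probe sets 2 members were lower, and 3 when each dim signal was set to the background level. With the arrays scaled on hybridization controls 1 pathway gene was lower, and 4614 of all genes were higher and 865 lower. Some members that did not pass turned sign there. Among them were IAA17 at 0.21, IAA21 at 0.235, ARF4 at 0.016, ARF15 at 0.011 and ARF23 at 0.23. IAA1, IAA4, IAA5, IAA10, IAA15, ARF9 and ARF10 did so too. With an array left out, IAA3 ran from -0.076 to 0.12, IAA17 from -0.20 to 0.047, IAA21 from -0.25 to 0.15 and ARF23 from -0.14 to 0.027, and IAA3 was -0.15 as the mean of its probe sets. Fits with an array left out use 3 samples in place of 4; the causes of the other shifts were not tested.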
